A study of Rattus norvegicus with 2 samples.

Results

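The chloride intracellular channel (CLIC) genes were read in lens epithelial cells (LECs) of Shumiya cataract rats (SCRs), a strain with hereditary cataract. The 6 members, *Clic1* to *Clic6*, were found as the probe sets whose platform annotation names one of them and no other gene, and each had 1 such probe set, among 18166 genes with a value of their own on the array. The family was proposed for description with the results of these arrays in view, because *Clic5* and *Clic3* were already known to be among the genes with the lowest signal ratios, so the members were in effect chosen by their log2 signals on these 2 arrays, and all their values are given as a description with no test. The Cat+ sample was taken at 5 weeks of age and had the *Lss* s/*Lss* l genotype, in which *Lss* l is a mutant allele of lanosterol synthase. The Cat- control was taken at 5 weeks of age and had the *Lss* s/*Lss* s genotype, with which lenses stay clear. The paper calls *Lss* s a polymorphic allele and attributes cataract in the strain to mutant alleles of *Lss* and *Fdft1* together. Mild opacity was reported in the Cat+ lenses at this age. Rats of both groups belong to the same strain, received regular or experimental chow, and were told apart by PCR of tail DNA. Lens capsules with the attached LECs were taken, and the RNA of 2 eyes per group was hybridized to 1 GeneChip Rat Gene 2.0 ST array, which leaves the values without replicates, without an error between rats and without p-values. Whether both eyes came from 1 rat is not given in the sources used here.

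CLIC proteins are small proteins that exist in a soluble form, with the fold of a glutathione transferase and a glutaredoxin-like active site, and in a membrane-bound form that can conduct anions in artificial bilayers. In cells they are found at the cortical cytoskeleton, in vesicles and in the nucleus, and several of them bind actin-linked proteins of the ezrin, radixin and moesin (ERM) family. The lens has no blood supply and depends on ion and water flow through its cells for its volume and clarity, and its fiber cells elongate on a cortical skeleton of actin and spectrin.

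Of the members, *Clic5* and *Clic3* had the lower signal in Cat+ by a wide margin, *Clic4* was lower by less, *Clic1* and *Clic6* were nearly equal on both arrays, and *Clic2* was slightly higher in Cat+. A signal ratio of Cat+ over Cat- (fold change) under 0.5 was found for 2 of 6 members, beside 56 of 18166 genes, or 0.308%, on the whole array. No member had a fold change over 2, which 1 gene, or 0.0055% of all genes, had. The direction was lower in Cat+ for 4 members and higher for 2, against 51.2% of all genes that were lower and 48.8% that were higher by any amount. Since the members were picked with this contrast known, nothing is read from these shares. The median log2 difference of the 6 members was -0.27, and that of all genes was -0.0049. Without *Clic5* and *Clic3* the median of the other 4 members was 0.016, and their fold changes ran from 0.693 to 1.18. The members thus differed from each other in both direction and size.

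**Figure D1:**
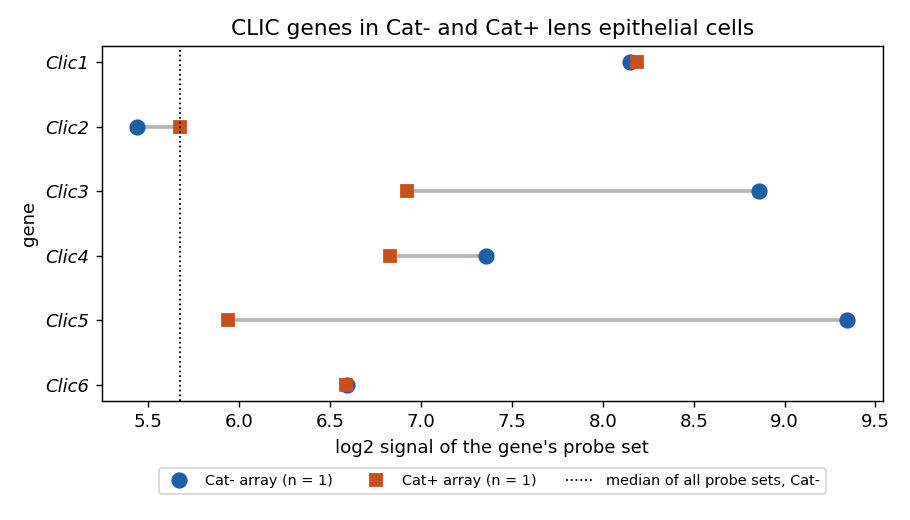
Log2 signal of the probe set of each CLIC gene (x axis) on the Cat- array (circles) and the Cat+ array (squares), with 1 array per group and the median of all probe sets of the Cat- array as a dotted line. The longest gaps are those of *Clic5*, from 9.34 to 5.94, and *Clic3*, from 8.86 to 6.92, while both symbols of *Clic1* and of *Clic6* nearly coincide.

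To show the sequence next to the start of the members that were lower in Cat+, promoters of RefSeq on the GRCr8 build were used for *Clic5*, *Clic3* and *Clic4*, and those of the other 3 members were not analysed here. Each window runs from 250 bases before the annotated start to 50 bases after it and is printed 5′ to 3′ on the strand of the gene. Capitals mark matches to 4 motifs searched on both strands, namely GAANNTTC (the core of a heat shock element), TGCTGA (a part of the Maf recognition site), TCACNCCAC (a sterol regulatory element) and GGGCGG (a GC box, CCGCCC on the other strand). No capital belongs to more than 1 of these motifs.
*Clic5* promoter, GRCr8 chr9:24310915-24311214, minus strand: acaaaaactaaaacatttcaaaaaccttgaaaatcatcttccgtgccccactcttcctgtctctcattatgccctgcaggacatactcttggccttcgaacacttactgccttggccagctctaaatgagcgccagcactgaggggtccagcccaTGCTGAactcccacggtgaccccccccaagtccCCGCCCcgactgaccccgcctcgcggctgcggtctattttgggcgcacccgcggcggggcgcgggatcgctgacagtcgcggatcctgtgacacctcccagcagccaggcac
*Clic3* promoter, GRCr8 chr3:28670005-28670304, plus strand: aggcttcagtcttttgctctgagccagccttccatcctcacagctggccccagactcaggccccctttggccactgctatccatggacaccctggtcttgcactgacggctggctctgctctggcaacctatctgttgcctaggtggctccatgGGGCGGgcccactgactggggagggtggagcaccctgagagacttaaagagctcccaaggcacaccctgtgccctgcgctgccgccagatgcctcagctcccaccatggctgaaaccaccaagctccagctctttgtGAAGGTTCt
*Clic4* promoter, GRCr8 chr5:152797069-152797368, minus strand: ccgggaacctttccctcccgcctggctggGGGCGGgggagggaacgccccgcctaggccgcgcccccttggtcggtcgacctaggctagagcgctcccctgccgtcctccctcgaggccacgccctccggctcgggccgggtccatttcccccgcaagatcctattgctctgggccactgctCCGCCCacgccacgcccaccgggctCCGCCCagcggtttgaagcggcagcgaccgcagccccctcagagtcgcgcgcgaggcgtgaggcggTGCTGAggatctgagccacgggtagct

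The GC box was the one motif that all 3 windows held. *Clic5* held 1 GC box at position -62 and 1 Maf site part at position -95, counted from -1 at the last base before the start. *Clic3* held 1 GC box at position -96 and 1 heat shock element core at position 42, inside the transcribed part. *Clic4* held 3 GC boxes and 1 Maf site part. Of 33469 RefSeq promoters of the same length, 33.1% held the GC box, 18.4% the Maf site part, 8.59% the heat shock element core and 1.12% the sterol regulatory element, which none of the 3 windows held. The base composition of the *Clic4* window stood apart, with 73.0% G and C and 33 CG pairs. The *Clic5* window had 59.7% and 19 pairs and the *Clic3* window 60.7% and 4 pairs, beside medians of 51.7% and 7 pairs over all promoters. These matches describe the letters in the windows and say nothing of which factors bind there. The array data cannot tell which start site of a gene was used, and *CLIC5* is known in humans to have alternative first exons.

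*Clic5* had the second lowest fold change of all 18166 genes, behind lengsin (*Lgsn*). CLIC5 binds ERM proteins and is known from the jitterbug mouse, in which loss of the gene disturbs the stereocilia of inner ear hair cells and causes deafness. The Cat- array gave a log2 signal of 9.34 and the Cat+ array 5.94, for a log2 difference of -3.41 and a fold change of 0.0943. In Cat+ its signal lay 0.25 above the median of all probe sets of that array on the log2 scale, against 3.67 above the median in Cat-. Beside the median of all genes, 6.07 in Cat+, the Cat+ signal of *Clic5* was below it. The table has no detection calls, so whether the Cat+ value is above the background of the array was not measured.

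*Clic3* had the 12th lowest fold change. Human CLIC3 was found as a binding partner of the kinase ERK7, and in human cancer cells it takes part in the return of integrins to the cell surface together with the small GTPase RAB25. The Cat- array gave a log2 signal of 8.86 and the Cat+ array 6.92, for a log2 difference of -1.94 and a fold change of 0.260. The Cat+ signal stayed 1.23 above the median of the array on the log2 scale. It was the member nearest to the fold change threshold of 0.5 on the lower side, though well past it.

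*Clic4* was the nearest member on the other side of that threshold. CLIC4 moves to the plasma membrane on signals through RhoA in cultured cells and is needed for tube formation by endothelial cells in mice. The Cat- array gave a log2 signal of 7.36 and the Cat+ array 6.83, for a log2 difference of -0.53 and a fold change of 0.693. By rank it was the 236th lowest of 18166 genes, and 180 genes, or 0.991%, were more than 1.5-fold lower.

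The other 3 members differed little between the arrays. *Clic1*, the widely expressed member first cloned as a nuclear chloride channel from human macrophage-like cells, gave a log2 signal of 8.15 on the Cat- array and 8.19 on the Cat+ array, for a fold change of 1.03. *Clic6*, known in rabbit as parchorin and enriched there in tissues that secrete water, gave a log2 signal of 6.59 on each array and a fold change of 0.995. Its direction is not fixed, since the log2 difference of -0.0071 became 0.0031 after quantile normalization. *Clic2*, whose human protein binds ryanodine receptors, the calcium release channels of the endoplasmic reticulum, gave a log2 signal of 5.44 on the Cat- array and 5.67 on the Cat+ array, for a fold change of 1.18. Both values lay below the median of all probe sets of their array, by 0.23 in Cat- and 0.014 in Cat+ on the log2 scale. The difference of *Clic2* thus comes from below the middle of the scale.

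**Figure D2:**
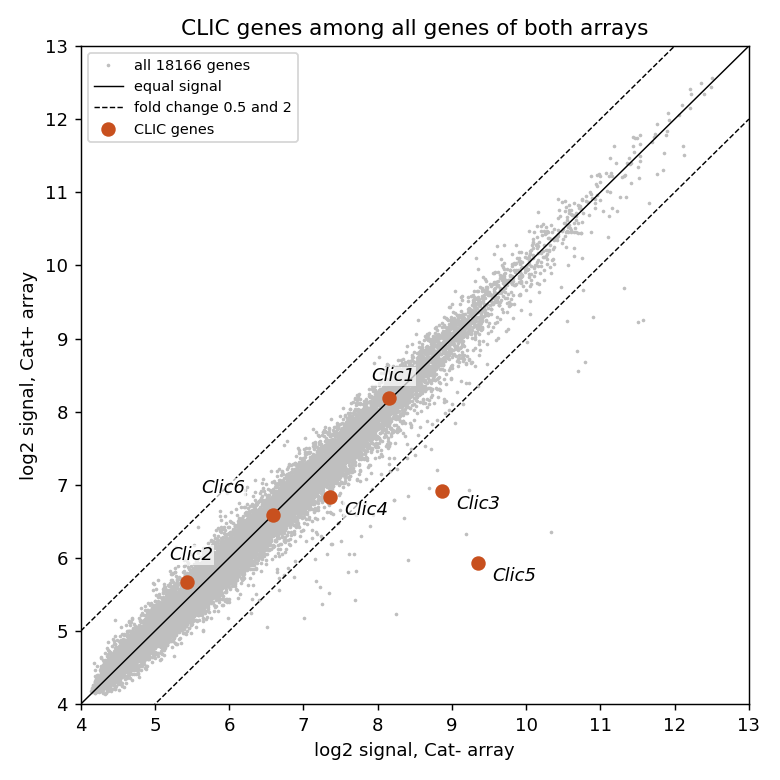
Log2 signal of each of 18166 genes on the Cat- array (x axis) and the Cat+ array (y axis), with the CLIC genes as large points, the line of equal signal, and dashed lines at fold changes of 0.5 and 2. *Clic5* (0.0943) and *Clic3* (0.260) lie below the lower dashed line, *Clic4* (0.693) lies between it and the diagonal, and the other 3 members lie inside the main cloud.

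The only spread within a gene that these arrays offer is that between its probe sets. Over the 291 genes that 2 or more probe sets read, the log2 differences within a gene had a pooled SD of 0.17, a factor of 1.13. The log2 difference of *Clic5* was 19.7 times this SD and that of *Clic3* 11.3 times, while *Clic4* reached 3.06 times and *Clic2* 1.35 times. *Clic1* and *Clic6* lay at 0.227 and 0.0409 of it. In the order of the differences, *Clic5* and *Clic3* were 1.47 apart on the log2 scale and *Clic3* and *Clic4* 1.41 apart, whereas *Clic6* and *Clic1* were 0.046 apart, well inside that SD. *Clic1* and *Clic2* were 0.19 apart, close to it. This SD covers probe sets of one gene on these arrays and not the spread between rats, so it does not say which differences would return in other animals. The large multiples of *Clic5* and *Clic3* are a description only, since these same differences picked the 2 genes.

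The genes closest to *Clic5* and *Clic3* in both signals are given as a description, since the same signals chose these members and their nearest genes had to be lower in Cat+ too. Likeness was the Euclidean distance in the plane of both log2 signals, over 2 arrays, and it includes the brightness of the probe sets, which is not a measure of transcript number between genes. Nearest to *Clic5* was the gamma crystallin *Crygf*, at a distance of 0.42, with log2 signals of 9.18 and 6.33. *Cryge*, as the annotation used here names its probe set, followed at 0.94, though gamma crystallin genes are close copies and cross-reading between their probe sets was not tested. The third was the small heat shock protein gene *Hspb1*, at 1.0003. Few genes thus share this corner of the plot, and no other gene was as near to *Clic5* as *Crygf*. Nearest to *Clic3* were the phosphatidate phosphatase gene *Lpin1* at 0.18, the calcium-binding protein gene *S100a6* at 0.29 and *Hspb1* at 0.36. For *Clic4* the nearest was *Strn*, a calmodulin-binding scaffold protein, at 0.041, in a much denser part of the plot.

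As a list, markers of lens fiber cells moved with *Clic5* and *Clic3*, and markers of the lens epithelium did not. The fold changes of single genes overlapped between these lists. In Cat- all measured markers of both kinds lay above the median signal of all genes, so fiber genes gave signal there beside epithelial genes. In Cat+ the epithelial markers were all above it as well, while the fiber markers *Dnase2b*, *Gje1*, *Tmod1* and *Cryge*, with log2 signals of 5.42, 5.60, 5.95 and 5.97, were below the median of 6.07. Of 18 listed markers of lens fiber cells, 16 were measured, and all 16 were lower in Cat+, with 11 under a fold change of 0.5 and a median of 0.253, beside 51.2% of all genes that were lower and 0.308% that were under 0.5. Their summed signal on the linear scale was 27521 in Cat- and 12144 in Cat+, a ratio of 0.441, and none was listed at 0. The 11 genes under 0.5 had all been named by the study from these samples, so the list is not independent evidence of its direction. The lowest were *Lgsn* at 0.0636, *Crygf* at 0.138 and *Cryge* at 0.185, and the highest was *Cryba2* at 0.965. Of 12 markers of lens epithelium, all measured, 7 were lower and 5 higher and none was past a fold change of 0.5 or 2. Their summed signals were 18780 and 18525, a ratio of 0.986. In such sums, here and for other lists, the brightest genes weigh most. For the epithelium these were *Cryab* and *Clu*, with log2 signals of 12.49 and 11.90 in Cat-. Furthest from 1 in fold change was *Sfrp1*, a secreted Wnt antagonist, at 0.586. *Col4a2*, a collagen of the lens capsule, followed at 0.810 and *Dkk3* at 0.814. The part of fiber cell material in the lower *Clic5*, *Clic3* and *Clic4* signals was not tested. In bulk RNA of this kind, fewer cells of a type and less RNA per cell cannot be told apart.

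Markers of other cell types that could carry CLIC transcripts were read in the same way. Of 12 markers of endothelium, 9 were measured, with fold changes from 0.822 for *Emcn* to 1.09 for *Cdh5* and a ratio of summed signals of 0.971, and in Cat- all 9 lay below the median signal of all genes. Of 12 macrophage and leukocyte markers, 11 were higher in Cat+, beside 48.8% of all genes that were higher by any amount. Their ratio of summed signals was 1.33, with *Cd68*, *Lyz2* and *C1qb* at 1.90, 1.64 and 1.47. *Clic2* at 1.18 was the one member that was higher by more than the probe set SD, and the part of leukocytes in it was not tested. Of 10 markers of iris, ciliary body and pigment epithelium, 7 were higher, beside the same 48.8% of all genes. Their ratio of summed signals was 1.03, with *Ttr* at 0.7003, *Tyr* at 1.20 and *Rpe65* at 0.838. Of 8 measured of 10 retina markers, 6 were higher, again beside 48.8% of all genes. Their ratio of summed signals was 1.32, with *Gnat1* at 1.51, *Sag* at 1.37 and *Pde6b* at 1.34. The other 2 retina markers were lower, with *Opn1sw* the lowest at 0.751. The 4 measured of 6 cornea markers were between 0.959 for *Kera* and 1.03 for *Krt12*, with a ratio of summed signals of 0.998. In Cat-, 2 of the 12 leukocyte, 2 of the 10 iris and 2 of the 8 retina markers lay below the median signal of all genes. *Tyrp1*, *Gnat1* and *Sag* had log2 signals of 9.80, 9.35 and 8.98 there, beside a median of 9.76 over the lens epithelium markers. Genes of cells outside the lens thus gave signal in this RNA, and their part in the CLIC values was not tested.

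Transcripts of proteins that CLIC5 is known to bind or to stand beside had fold changes from 0.812 to 1.27. Of 10 listed ERM proteins and CLIC5 partners, all measured, none was under 0.5 or over 2, and with 0.314% of all genes past that rule nothing particular to the list is read from this. The list had 3 genes lower and 7 higher, beside 48.8% of all genes that were higher. Its median fold change was 1.06, beside 0.997 over all genes. Among the ERM genes, *Ezr* gave a log2 signal of 7.89 on the Cat- array and 8.06 on the Cat+ array, for a fold change of 1.12. *Rdx*, which in mice is needed for stereocilia like *Clic5*, gave 8.40 and 8.49, for a fold change of 1.06. *Msn* gave 8.22 and 7.998, for a fold change of 0.858. The fold changes of these 3 genes thus ran from 0.858 to 1.12.

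The adaptors and the other partners on the list ran from 0.812 for *Nherf2* to 1.27 for *Myo6*. *Nherf1* and *Nherf2*, scaffold proteins that link ERM proteins to membrane proteins, had fold changes of 1.07 and 0.812. *Podxl*, the sialomucin of podocyte foot processes that is anchored through ezrin, was at 1.11. Of the proteins at the base of the stereocilium, *Tprn* (taperin) was at 0.867, the motor protein gene *Myo6* at 1.27 and the receptor phosphatase gene *Ptprq* at 1.004. The log2 signals of *Ptprq* were 4.77 on both arrays, below the median of each. *Akap9*, the centrosomal scaffold that binds the long isoform of human CLIC5, was at 1.23.

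Partners reported for the other CLIC proteins held 1 gene of 19 that was more than 1.5-fold lower, beside 0.991% of all genes. Of 20 listed genes, 19 were measured, 9 lower and 10 higher, none under 0.5 or over 2, and the median fold change was 1.0004. *Rab25*, the epithelial GTPase of the recycling route in which human CLIC3 acts, gave a log2 signal of 6.64 on the Cat- array and 5.81 on the Cat+ array, for a fold change of 0.562, the 85th lowest of all genes. *Tgm2*, a transglutaminase, was at 0.788 and *Mmp14*, a membrane-bound matrix protease whose recycling also involves CLIC3 in human cells, at 0.800. *Drd4*, a dopamine receptor of the type that rat CLIC6 binds, was at 0.825, with both signals below the median of all genes.

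Genes with the same protein fold had fold changes from 0.800 to 1.30, and other chloride channels from 0.729 to 1.38. Of 24 listed glutathione transferases and relatives of the fold, 21 were measured, 8 lower and 13 higher, beside 48.8% of all genes that were higher. None was past the threshold in either direction, and the median was 1.03. *Gsta1* was at 1.30 and *Gstm2* at 1.17, both of them enzymes that conjugate glutathione. *Gsto2*, of the omega class that CLIC proteins resemble most, was at 0.800, and *Ptges2*, a prostaglandin E synthase, at 0.831. Of 39 listed chloride channels of other families and their subunits, 35 were measured, 19 lower and 16 higher, none past the threshold, with a median of 0.998. The furthest from 1 were *Ano9*, of the anoctamin family, at 1.38, *Lrrc8d*, a subunit of the volume-regulated anion channel, at 1.30, *Clcn6*, an endosomal chloride transporter, at 0.729 and *Bsnd*, the barttin subunit of kidney and ear chloride channels, at 0.835. For *Clcn6* this is the value of the brighter of its 2 probe sets. Over the 4 lists, 0 of 85 measured genes were under 0.5 or over 2, a share that does not stand apart from the 0.314% of all genes.

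**Figure D3:**
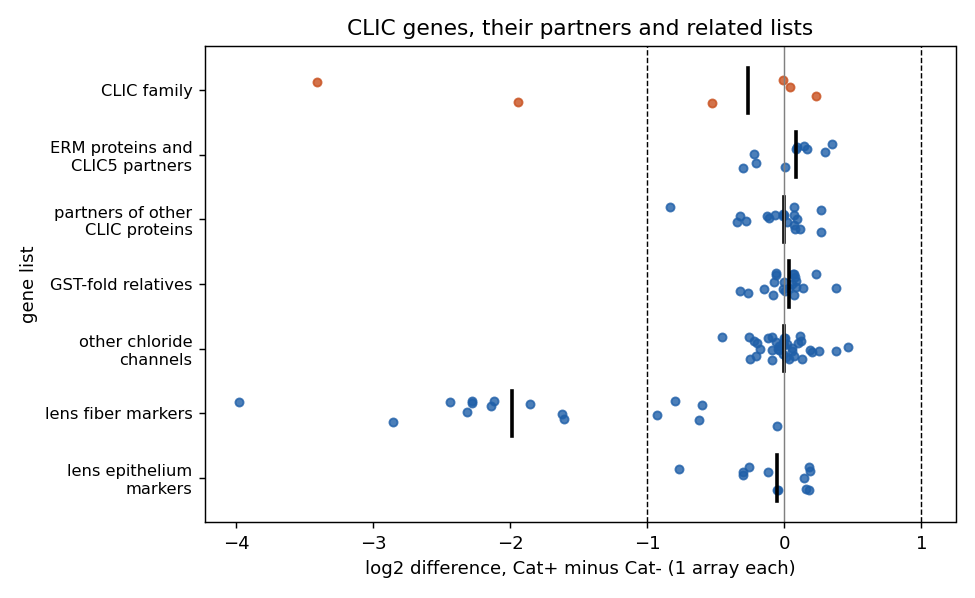
Log2 difference of Cat+ minus Cat- (x axis, 1 array per group) for each measured gene of the CLIC family, of 4 related lists and of the lens marker lists, with a vertical bar at the median of each list and dashed lines at fold changes of 0.5 and 2. *Clic5* and *Clic3* lie left of the dashed line at -1 together with 11 fiber markers, while no gene of the partner, glutathione transferase (GST) fold and chloride channel lists does.

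Genes beside *Clic5* and *Clic3* on the chromosome had fold changes between 0.817 and 1.09. The members lie on 5 chromosomes of the GRCr8 assembly, and *Clic1* and *Clic2*, on the same one, have 160 protein-coding genes between them. For each member, up to 3 measured genes on either side were read, a choice made after the values of the members were seen. The 6 neighbours of *Clic5* had fold changes from 0.868 to 1.09, with *Runx2*, the bone transcription factor, at 0.973 and *Enpp4* at 0.868. The 6 neighbours of *Clic3* ran from 0.817 for *Npdc1* to 1.06 for *Fut7*, with *Ptgds*, a prostaglandin D synthase, at 0.918. Around *Clic4* the range was 0.876 to 1.27.

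*Clic4*, *Clic5* and *Clic6* stand in a like setting, which was also seen only after the neighbours were listed. Each has a *Runx* gene and an *Rcan* gene among these neighbours, the remains of an old duplication of one block in vertebrates. *Runx* genes encode transcription factors and *Rcan* genes regulators of calcineurin. Beside *Clic4*, *Runx3* was at 1.26 and *Rcan3* at 0.876. Beside *Clic5*, *Runx2* was at 0.973 and *Rcan2* at 1.06. Beside *Clic6*, *Runx1* was at 1.13 and *Rcan1* at 0.952. None of the 3 *Runx* genes and 3 *Rcan* genes was past a fold change of 0.5 or 2, which holds for nearly any 6 genes when 0.314% of all genes are past it. In the same blocks *Clic5* was at 0.0943, *Clic4* at 0.693 and *Clic6* at 0.995.

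**Figure D4:**
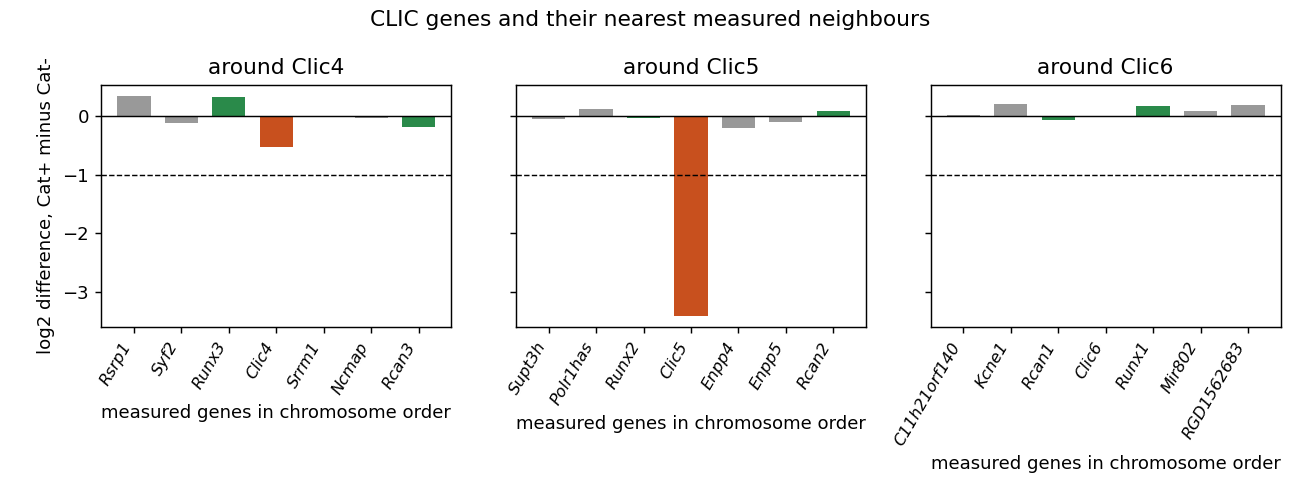
Log2 difference of Cat+ minus Cat- (y axis, 1 array per group) for *Clic4*, *Clic5* and *Clic6* (orange bars) and the 3 nearest measured genes on either side in chromosome order (x axis), with *Runx* and *Rcan* genes in green, other genes in grey and a dashed line at a fold change of 0.5. Only the *Clic5* bar crosses the dashed line, at -3.41, and the 6 genes around it lie between fold changes of 0.868 and 1.09.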

How the data were processed

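LECs of 5-week-old SCRs were measured on 1 GeneChip Rat Gene 2.0 ST array each for Cat- and Cat+. The values deposited by the authors are normalized log2 signals of 29870 probe sets. Per their methods each array was scaled on its own, by a specific control or by its average intensity, and genes were picked in GeneSpring by a ratio over 2 or under 0.5. How background was corrected and probes were combined is not given in the sources used here. The log2 scale was read from the range of the values, 4.13 to 12.56. Both arrays had near-equal medians, 5.67 in Cat- and 5.69 in Cat+.

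For each probe set the Cat- log2 value was subtracted from the Cat+ value, and the fold change was taken from it, without further scaling or filtering. The platform annotation names 1 gene for 18511 probe sets, several for 575 and none for 10784. A gene with several probe sets took the brighter. No test was run with 1 array per group, and the number of arrays limits the precision. The members, the gene lists and the comparisons were chosen with earlier results of these data known. Named are all members, all genes of the ERM list, up to 4 genes of the other lists and up to 3 of the marker lists with the largest differences, the 3 genes nearest to *Clic5* and *Clic3*, and genes said to have been chosen later. *Strn* and members that mark the end of a range were also named after their values were seen. Promoters were read from RefSeq, GRCr8. A comparison of protein sequences was planned and not run. Alternatives were median centring, quantile normalization, a loess curve with a span of 0.3, a floor at the 20th percentile, a filter at the array median, other rules for several probe sets, and 1.5-fold and 3-fold thresholds. The size rule was run on simulated data with planted shifts well past it. That run checks the code, holds no spread between rats and is no test between the arrays. The work was run in Python 3.11.15 with pandas 2.3.3, NumPy 2.4.6, matplotlib 3.10.9 and statsmodels 0.14.6.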

Additional observations from a re-analysis of the deposited data

How the results depend on the processing

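Under 5 settings that changed the scaling, the floor or the filter, the log2 difference of *Clic5* ran from -3.42 to -3.40, that of *Clic3* from -1.95 to -1.91 and that of *Clic4* from -0.54 to -0.50. The count of 2 members past the size rule was the same under every alternative, the 1.5-fold and 3-fold thresholds included. The sign changed for *Clic6* alone among the members, after quantile normalization. The median log2 difference of the family moved to -0.53 when only genes reaching the array median were kept, since *Clic2* was then left out and 5 members remained. At a threshold of 1.5-fold, 1 gene among the partners of other CLIC proteins, *Rab25*, was past it, in place of 0. Each member has 1 probe set of its own, so the rules for several probe sets could not change their values. No paired analysis was possible because each group has 1 array. With 1 array per group and no detection calls, neither the spread between rats nor the background under dim probe sets such as that of *Clic2* was measured.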
